A study of Drosophila melanogaster with 6 samples.

Results

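The genes described here are 6 maternal genes of egg activation: png, plu, gnu, wisp, mtrm and sra. They were chosen by name, and every probe set whose platform annotation gives exactly 1 symbol equal to one of them was taken. Each gene had 1 such probe set, so the set comprised 6 of the 11982 genes named by single-symbol probe sets, and 6 of the 18769 probe sets tested, and no probe set of several genes carried any of these names. Levels were log2 values from Affymetrix Drosophila Genome 2.0 arrays, 3 per group, each array holding RNA of a pool of dechorionated embryos 2 to 4 h old. Whole embryos were pooled, so more RNA per embryo and more embryos of an age rich in a transcript cannot be told apart.

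The brakeless embryos came from FRT2R G13 bks278/FRT2R G13 ovoD1 mothers in which recombination left a germ line homozygous for bks278, a strong brakeless (sbb) allele. Their fathers were FRT2R G13 bks278/CyO, so zygotic sbb was missing from only a part of the brakeless embryos. The control embryos came from FRT2R G13/FRT2R G13 ovoD1 mothers, with germline clones of the original unmutagenized chromosome, and from FRT2R G13 fathers. Both groups therefore shared the maternal FRT2R G13 chromosome and mothers with the dominant female-sterile ovoD1, which blocks egg laying from germ cells that keep it. Clones were confined to the germ line, and 1 allele was studied. The plu gene lies on chromosome arm 2R, the arm exchanged in the clones, while png and wisp lie on X, mtrm and gnu on 3L and sra on 3R.

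Egg activation is the step at which a mature Drosophila egg leaves its meiotic arrest and finishes meiosis. Activation also starts the translation and later destruction of stored maternal messages. It is driven by a calcium rise rather than by fertilization. Calcium acts through the phosphatase calcineurin and its regulator Sarah (sra). The protein kinase Pan gu (png) then becomes active in a complex with Plutonium (plu) and Giant nuclei (gnu), and switches on the translation of maternal messages such as those of cyclin B and smaug. Wispy (wisp) is the cytoplasmic poly(A) polymerase that lengthens the tails of these messages, and Matrimony (mtrm) is an inhibitor of Polo kinase that guards the prophase arrest of the oocyte. The messages of all 6 are made by the mother, and egg activation precedes the age at which these embryos were collected. The comparison asks whether their levels depended on Brakeless in the maternal germ line.

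Among the arrays, control replicate 3 stood apart, with a mean correlation of 0.964 with the other arrays, against 0.979 to 0.986 for the remaining 5. Results are therefore also given without control replicate 3. On the brightest probe set of the targeted gene, sbb, the brakeless arrays read 5.33, 4.45 and 4.61 (log2). The control arrays read 6.01, 6.71 and 6.06. The difference of -1.46 (SE 0.30, limma unadjusted p = 0.00268) was not called after adjustment (0.320). The other 2 sbb probe sets read between 3.20 and 4.32 on all arrays. Their differences of 0.081 and 0.11 were not called either (limma adjusted p = 0.998). Early zygotic genes such as sna, twi and nullo, which mark the blastoderm, had a list mean of 7.72 in brakeless and 7.96 in control embryos, against a median of 3.67 over all probe sets. Eggshell genes of follicle cells, which mark retained egg chambers, averaged 3.76 in brakeless and 3.78 in control embryos, close to that median.

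None of the 6 egg activation genes differed between brakeless and control embryos beyond the spread of the arrays. Wisp and mtrm averaged higher in brakeless embryos, while png, plu and gnu, the 3 subunits of the Pan gu kinase, averaged lower and sra was nearly level. Limma called 0 of the 6 at an adjusted p under 0.05, where it called 0.139% of all probe sets. At an unadjusted p under 0.05 it called 0 of the 6, against 4.78% of all. The brakeless and control arrays overlapped in every one of the 6 genes, whereas the groups did not overlap in 10.1% of all probe sets. The adjusted p was 0.998 for each gene. The median difference over the 6 was -0.11, against 0.0022 over all probe sets, and 2 differences were positive and 4 negative. The 6 genes read from 8.57 to 12.6, far above the median level of 3.67 over all probe sets.

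**Figure D1:**
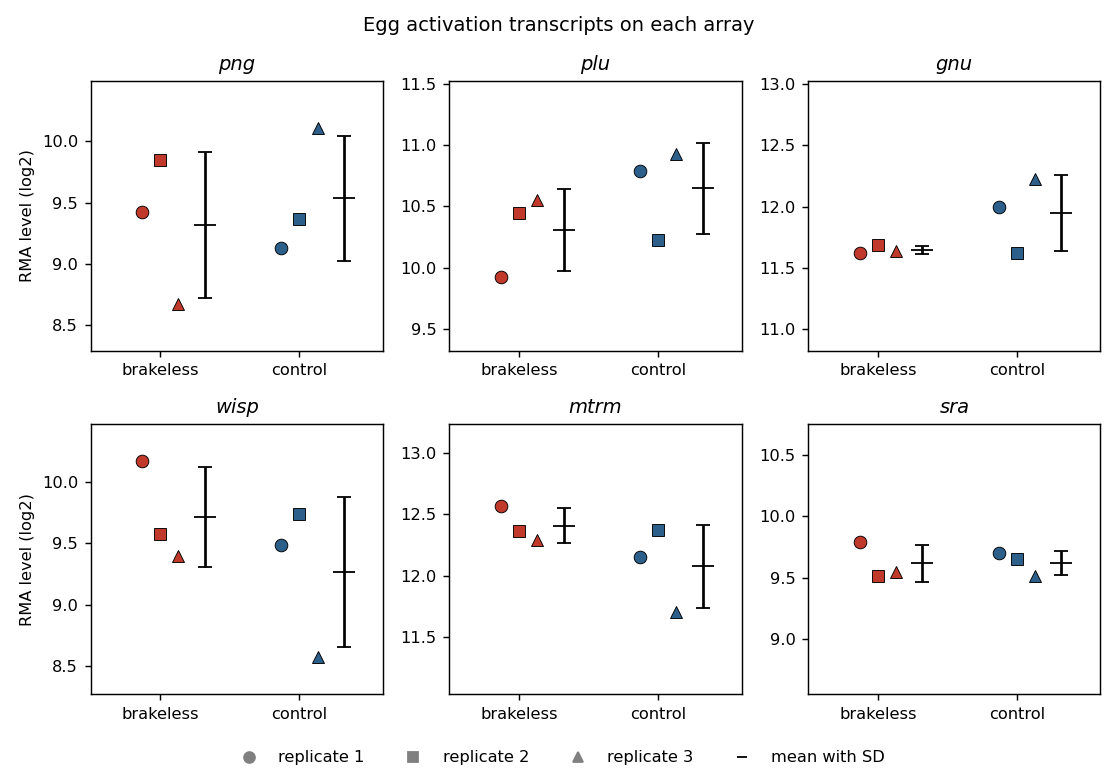
Deposited RMA level (log2, y axis) of each gene on the 3 brakeless arrays (red, left) and the 3 control arrays (blue, right), with the mean and SD of each group beside the points; every panel spans the same height on the log2 scale. The groups overlap in all 6 panels, and control replicate 3 is the highest array for png, plu and gnu and the lowest for wisp, mtrm and sra.

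The catalytic subunit of the kinase complex, png, varied widely within both groups. Its probe set 1638329_at read 9.42, 9.85 and 8.68 in brakeless arrays, against 9.13, 9.37 and 10.1 in control arrays (log2). Brakeless replicate 3 was the lowest of all arrays and control replicate 3 the highest, and among the other 4 both brakeless arrays lay above both control arrays. The means and SDs over 3 arrays were 9.32 ± 0.59 in brakeless embryos and 9.54 ± 0.51 in control embryos. The difference was -0.22 (SE 0.38, 95% interval -1.14 to 0.70, limma adjusted p = 0.998), so the interval covers folds from 0.453 to 1.63. The sign rested on single arrays: the difference was 0.066 without control replicate 3 and 0.10 without brakeless replicate 3.

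The ankyrin-repeat subunit, plu, was lowest in brakeless replicate 1. Probe set 1632814_at read 9.92, 10.4 and 10.6 in brakeless arrays, against 10.8, 10.2 and 10.9 in control arrays. Control replicate 2 lay below brakeless replicates 2 and 3, which is where the groups overlapped. The means and SDs over 3 arrays were 10.3 ± 0.34 in brakeless embryos and 10.6 ± 0.37 in control embryos. The difference was -0.34 (SE 0.25, 95% interval -0.95 to 0.27, limma adjusted p = 0.998). Without brakeless replicate 1 the difference was -0.15 and without control replicate 2 it was -0.55.

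The third subunit, gnu, which is needed to activate the kinase, was tightly grouped in brakeless embryos only. Probe set 1633417_at read 11.62, 11.68 and 11.64 in brakeless arrays, against 11.99, 11.62 and 12.23 in control arrays. Control replicate 2 lay just beneath the narrow brakeless range, and the other 2 control arrays lay above all brakeless arrays. The means and SDs over 3 arrays were 11.6 ± 0.031 in brakeless embryos and 11.9 ± 0.31 in control embryos, and whether the spread itself differed was not tested. The difference was -0.30 (SE 0.17, 95% interval -0.71 to 0.11, limma adjusted p = 0.998). It was -0.46 without control replicate 2 (limma unadjusted p = 0.0137, adjusted p = 0.520) and -0.16 without control replicate 3.

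The poly(A) polymerase gene wisp had the greatest range over the arrays among the 6. Probe set 1631125_at read 10.2, 9.58 and 9.39 in brakeless arrays, against 9.49, 9.74 and 8.57 in control arrays. Brakeless replicate 1 was the highest and control replicate 3 the lowest, 3.04-fold apart, and the 4 arrays between them were interleaved. The means and SDs over 3 arrays were 9.72 ± 0.41 in brakeless embryos and 9.27 ± 0.61 in control embryos. The difference was 0.45 (SE 0.36, 95% interval -0.42 to 1.32, limma adjusted p = 0.998), which spans folds from 0.747 to 2.501. Without control replicate 3 it was 0.10 (95% interval -0.54 to 0.75), so most of the difference rested on that array.

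The Polo inhibitor gene mtrm followed the same order of arrays at its ends. Probe set 1629445_at read 12.6, 12.37 and 12.3 in brakeless arrays, against 12.1, 12.37 and 11.7 in control arrays. Control replicate 2 lay inside the brakeless range, and control replicates 1 and 3 lay beneath it. The means and SDs over 3 arrays were 12.4 ± 0.14 in brakeless embryos and 12.1 ± 0.34 in control embryos. The difference was 0.33 (SE 0.19, 95% interval -0.14 to 0.80, limma adjusted p = 0.998). It was 0.15 without control replicate 3 and 0.48 without control replicate 2 (limma unadjusted p = 0.0474, adjusted p = 0.652).

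The calcineurin regulator gene sra was the steadiest of the 6. Probe set 1639162_at read 9.79, 9.52 and 9.55 in brakeless arrays, against 9.70, 9.65 and 9.51 in control arrays. All 6 arrays lay within 0.28 of each other on the log2 scale. Only 3.59% of the 9384 probe sets with a mean above the overall median had a smaller range, against 79.3% for wisp, 74.8% for png, 55.6% for plu, 47.1% for mtrm and 29.0% for gnu. The means and SDs over 3 arrays were 9.62 ± 0.15 in brakeless embryos and 9.62 ± 0.098 in control embryos. The difference was -0.0055 (SE 0.12, 95% interval -0.30 to 0.29, limma adjusted p = 0.998), and the interval reaches from 0.811-fold to 1.22-fold. Its sign turned in both scaling alternatives, to 0.020 in each.

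**Figure D2:**
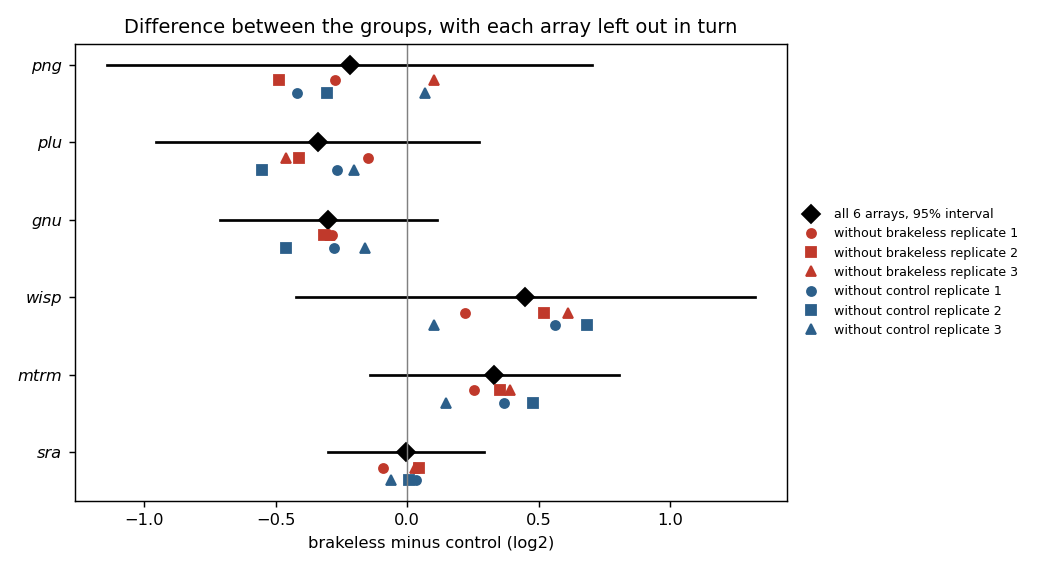
Difference between brakeless and control embryos (log2, x axis) for each gene, with the 95% interval of the fit on all 6 arrays (black) and the difference after leaving out each brakeless array (red) or control array (blue) in turn. Every interval includes 0; leaving out control replicate 3 moves wisp to 0.10 and png to 0.066.

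In each of the 6 genes the control arrays spanned more than the difference between the groups. The brakeless arrays did so in all but gnu (range 0.059, difference -0.30) and mtrm (range 0.27, difference 0.33). Single arrays deviated in opposite directions in different genes. Relative to each gene's mean over the 6 arrays, control replicate 3 read 0.68 for png, 0.45 for plu and 0.43 for gnu, the highest array for all 3 kinase subunits. The same array read -0.92 for wisp, -0.54 for mtrm and -0.11 for sra, the lowest for all 3. It was thus at an end of the range in 6 of 6 genes, but it was so in 58.0% of the probe sets above the median as well. Brakeless replicate 1 stood at the other end for 4 of the genes, at 0.68 for wisp, 0.32 for mtrm, 0.17 for sra and -0.56 for plu.

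**Figure D3:**
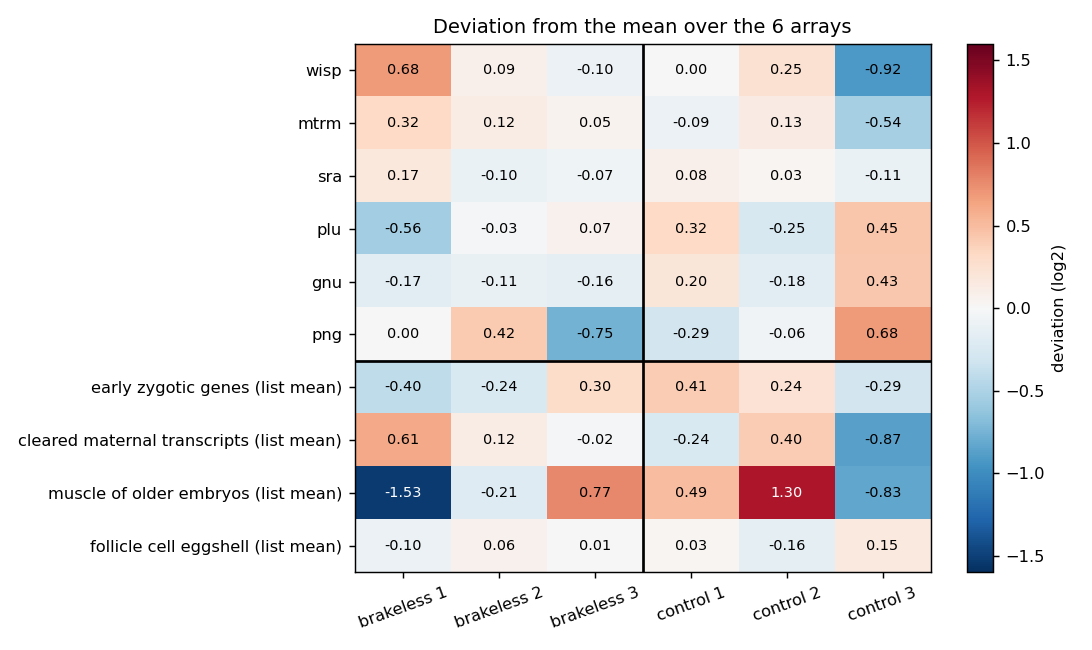
Deviation of each array (columns) from the mean over the 6 arrays (log2, colour and printed value) for the 6 egg activation genes and for the mean of each marker list. Wisp and mtrm are lowest in control replicate 3, as is the mean of cleared maternal transcripts, while plu, gnu and png are highest there.

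Marker lists of age were set beside these profiles. Cleared maternal transcripts such as smg, twe, osk and bcd, which are destroyed as the embryo takes over, had 7 of 7 measured genes with positive differences, with a median of 0.51, and limma called 0, also at an unadjusted p under 0.05. Smg, twe, nanos, CycB and orb of this list are also in the pathway lists given further below, with the same probe sets. Averaged over the list, the deviations came to 0.61, 0.12 and -0.024 for brakeless arrays, against -0.24, 0.40 and -0.87 for control arrays. The wisp deviations were 0.68, 0.087 and -0.095 in brakeless and -0.0012, 0.25 and -0.92 in control arrays. Without control replicate 3 the median of the cleared maternal list was 0.086.

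Muscle genes, which mark older embryos, had negative differences in 7 of 7, with a median of -0.67, and limma called 0 here too, with or without adjustment. Without control replicate 3 that median was -1.29. Their list level ran from 4.14 to 6.44 in brakeless arrays and from 4.84 to 6.97 in control arrays, lowest in brakeless replicate 1 and, among controls, in control replicate 3. Early zygotic genes had 7 of 11 negative, with a median of -0.14, and limma called 0 after adjustment. Before adjustment it called 2, nullo and Sry-alpha, against 4.78% of all probe sets. The median was -0.29 without control replicate 3. Their list level ran from 7.44 to 8.14 in brakeless and from 7.55 to 8.25 in control arrays. Eggshell genes had 4 of 11 negative and a median of 0.017, and their list level ran from 3.68 to 3.84 in brakeless and from 3.61 to 3.93 in control arrays. The part of age, or of control replicate 3, in the profiles of the egg activation genes was not tested.

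Levels of the 6 genes were also compared with each other over the 6 arrays, in 15 pairs, with two-sided exact permutation tests adjusted over the pairs. Wisp and mtrm varied together (Pearson r = 0.97, permutation p = 0.00694, adjusted p = 0.0625; Spearman rho = 0.94, permutation p = 0.0167, adjusted p = 0.0833). Without the 2 arrays farthest from the wisp median, control replicate 3 and brakeless replicate 1, r was 0.57. Plu and mtrm ran in exactly opposite order (rho = -1, permutation p = 0.00278, adjusted p = 0.0417), with r = -0.89 (permutation p = 0.0153, adjusted p = 0.0625). Without brakeless replicate 1 and control replicate 3 their r was -0.92, and it was -0.84 after removing the group means.

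Of the 3 pairs of kinase subunits, plu and gnu had r = 0.82 (permutation p = 0.0417, adjusted p = 0.104) and rho = 0.89 (permutation p = 0.0333, adjusted p = 0.10). Their r was 0.85 without brakeless replicate 1 and control replicate 3, the 2 arrays farthest from the plu median. Png had r = 0.17 with plu (permutation p = 0.746, adjusted p = 0.746) and rho = 0.086 (permutation p = 0.919, adjusted p = 0.985). Png had r = 0.49 with gnu (permutation p = 0.282, adjusted p = 0.423) and rho = 0.37 (permutation p = 0.497, adjusted p = 0.622), but r was -0.57 without brakeless replicate 3 and control replicate 3. Gnu and mtrm had r = -0.93 (permutation p = 0.0125, adjusted p = 0.0625) and rho = -0.89 (permutation p = 0.0333, adjusted p = 0.10), but r was -0.30 without control replicates 1 and 3. Plu and wisp had r = -0.89 (permutation p = 0.0167, adjusted p = 0.0625) and rho = -0.94 (permutation p = 0.0167, adjusted p = 0.0833). Of the 15 pairs, plu with mtrm alone passed at 0.05 after adjustment, by rank and not by r. The tests of r and of rho were adjusted separately, each over the 15 pairs. No adjustment was made over both kinds of test together, so this pass is not firm. The tests cannot set a pair apart from array patterns that many genes share. Among 7481 genes above the median level, 222 had r over 0.95 with mtrm and 123 with plu. Control replicate 3 was at an end of the range in 58.0% of the probe sets above the median.

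Genes with the most similar profile were looked up for each of the 6 by Pearson r over the 6 arrays, among 7481 genes above the median level. With so many genes and so few arrays, high values of r arise without any relation, so they are descriptive. For png they were CG34435 (r = 0.999) and alpha-PheRS (0.993), a subunit of the tRNA synthetase for phenylalanine. CG34435 read only 3.47 to 3.86, around the median of 3.67 over all probe sets. For plu they were CG16986 and CG14817 (both 0.998), and for gnu HP1c (0.994), a heterochromatin protein 1 paralog, and CG11898 (0.993). For wisp they were csw (0.996), a tyrosine phosphatase of receptor tyrosine kinase signalling, and Pgant9 (0.995). For mtrm they were Fancm (0.999), a DNA helicase of crossover control and repair, and CG16953 (0.998). For sra they were CG1407 (0.955) and inc (0.954), lower than for the other genes.

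Other genes of these pathways were examined in 5 lists. Limma called 0 of their 47 measured genes, the 6 included, against 0.139% of all probe sets. At an unadjusted p under 0.05 it called dhd alone, against 4.78% of all. Differences of the calcium and calcineurin list were positive in 4 of 8, with a median of 0.0051, and of 0.21 without control replicate 3. CanB2, the calcineurin B subunit used at egg activation, read 11.5, 11.6 and 11.5 in brakeless arrays, against 11.3, 11.3 and 10.8 in control arrays. Each brakeless array thus lay above each control array, but the difference of 0.39 (SE 0.17) had a limma adjusted p of 0.998. Trpm, the channel through which calcium enters the egg, differed by 0.32 (SE 0.45).

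Genes for the completion of meiosis, where mtrm acts, had positive differences in 11 of 12, with a median of 0.39, against 0.0022 over all probe sets. Cks30A, a Cdk1 subunit needed in female meiosis, read 10.71, 10.71 and 11.0 in brakeless arrays, against 10.7, 10.6 and 8.76 in control arrays. Fzr, an activator of the anaphase-promoting complex, differed by 0.62 (SE 0.44). Control replicate 3 was the lowest array in 9 of the 12, and without it the list's median was 0.15 and the differences were 0.17 for both Cks30A and fzr.

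The list of translational control, which holds png, plu and gnu, had 7 of 10 positive, with a median of 0.31. The 3 negative differences were those of the kinase subunits themselves. Me31B, an RNA helicase that represses maternal messages, read 13.05, 12.99 and 13.02 in brakeless arrays, against 13.01, 12.80 and 9.81 in control arrays, so that its difference of 1.15 (SE 0.84) rested on control replicate 3. Pum, an RNA-binding translational repressor, differed by 0.95 (SE 0.67). Without control replicate 3 these differences were 0.12 for me31B and 0.41 for pum, and the list's median was 0.18.

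The list of polyadenylation and deadenylation, to which wisp belongs, had 8 of 9 positive and a median of 0.35. Not3, a subunit of the CCR4-NOT deadenylase, read 9.35, 8.97 and 9.03 in brakeless arrays, against 9.04, 9.21 and 5.94 in control arrays. Its difference was 1.06 (SE 0.87), and -0.0069 without control replicate 3. Orb, the CPEB protein of the oocyte, differed by 0.46 (SE 0.47), and by 0.018 without that array. The list's median was then 0.018 as well.

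Genes of fertilization, pronuclei and the first cleavages had 6 of 8 positive, with a median of 0.19. In dhd, a thioredoxin needed to unpack sperm chromatin, the brakeless arrays at 14.09, 14.16 and 14.01 all lay above the control arrays at 13.78, 13.90 and 13.81. The difference of 0.26 (SE 0.099, limma unadjusted p = 0.0406) was not called after adjustment (0.998). In nopo, a ubiquitin ligase of the early cleavages, the arrays did not overlap either, at 4.28, 4.39 and 4.17 in brakeless arrays, against 4.02, 4.04 and 4.04 in control arrays. Its difference was 0.24 (SE 0.10), at levels near the median of 3.67 over all probe sets. Both differences were 0.25 without control replicate 3, and the list's median was then 0.28. Of the 47 genes in the 5 lists, CanB2, endos, dhd and nopo had groups that did not overlap, against 10.1% of all probe sets.

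**Figure D4:**
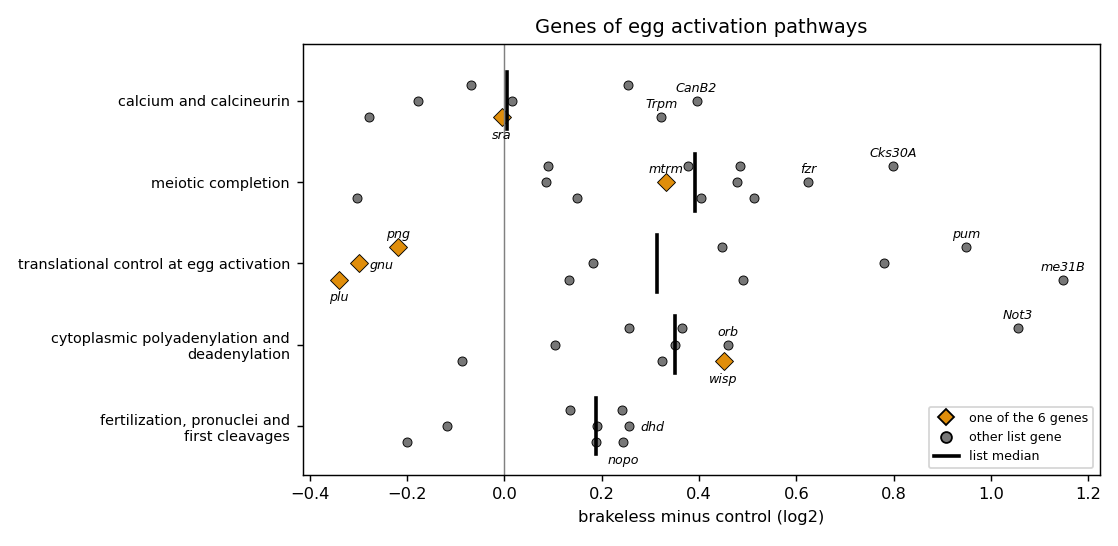
Difference between brakeless and control embryos (log2, x axis) for each measured gene of 5 egg activation lists (rows), with the 6 genes as orange diamonds, other genes as grey points and the list median as a black bar. The medians lie between 0.0051 and 0.39, png, plu and gnu lie to the left of 0, and me31B and Not3 lie farthest to the right.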

How the data were processed

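The authors deposited log2 expression values per probe set, which RMA had normalized together, per the submitters' processing notes. Its version, its settings and the labelling primer were not given in the sources used here. Values from 1.98 to 14.5 set the scale as log2. RMA compresses differences near background and hides differences in total RNA per embryo. Arrays carry no read depth, so their number limits the precision. Without 183 Affymetrix controls, 18769 of 18952 probe sets were tested.

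Names came from the platform annotation (13647 probe sets with 1 symbol, 402 with several, 4720 with none) and chromosome arms from RefSeq. Both groups entered one fit of all 6 arrays without covariates (lmFit and eBayes of limma 3.58.1, R 4.3.3), tested two-sided with Benjamini-Hochberg adjustment over all probe sets and a threshold of 0.05; differences are brakeless minus control. The step was run on simulated data of independent, normally distributed probe sets. Those data held no deviations shared across the genes of an array, so that run cannot speak to such deviations here. The labels call the arrays biological replicates.

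The members and lists were chosen with earlier results of these data known. Lists used the probe set of highest mean per gene. Named were all probe sets of the 6 genes, of each list the 2 largest differences, and for each of the 6 the 2 genes of highest r; other list genes were named after their values were seen. Listed genes without a probe set of their own single name were not analysed here. In the pathway lists these were Cam, sgg, polo, CycA, Cdk1, tral, cup, Not1 and ms(3)K81. In the marker lists they were sog, stg, Hsp83, Mhc, Act57B, wupA and Vm26Ab. Counts of genes in a list therefore cover its measured genes only.

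Alternatives were trend and robust moderation, array weights, quantile normalization again, median centring, a filter at the 40th percentile, the replicate number as a block and each array left out. Same-numbered arrays did not deviate together (correlations of deviations -0.40, -0.23 and -0.32), so the main fit held no block. Some arrays of unlike number did. Brakeless replicate 3 had 0.55 with control replicate 1, and brakeless replicate 2 had 0.35 with control replicate 3. Brakeless replicate 1 had 0.24 with control replicate 2 and 0.13 with control replicate 3. The remaining pairs had -0.29 (brakeless 2, control 1) and -0.12 (brakeless 3, control 2). No block of such pairs was fitted. Figures used matplotlib 3.10.9 in Python 3.11.15.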

Additional observations from a re-analysis of the deposited data

How the results depend on the processing

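Under all 12 alternatives limma called 0 of the 6 egg activation genes, with adjusted p from 0.520 to 0.9997, and at an unadjusted p under 0.05 it called gnu and mtrm without control replicate 2 and none otherwise. Of 72 recomputed differences 63 kept their direction, among them all those of plu, gnu, wisp and mtrm. The sign of png turned with array weights (0.21), and its difference ran from -0.49 to 0.10 when single arrays were left out. The sign of sra turned after quantile normalization again (0.0205) and after median centring (0.0204), and it ran from -0.092 to 0.045 over the arrays left out. The causes were not tested. The count over all probe sets, 26 (6 higher, 20 lower), was 46 with trend and robust, 74 with array weights, 0 with the replicate block (678 at an unadjusted p under 0.05) and 0 to 33 with single arrays left out. Quantile normalization again split the calls into 8 higher and 15 lower. With 3 arrays a group, the 95% intervals of the 6 genes reached from 0.30 (sra) to 0.92 (png) on either side of the difference. A difference smaller than its gene's reach would not have passed even at an unadjusted p under 0.05. Calls after adjustment over all probe sets needed more. Sry-alpha, at -1.03 (95% interval -1.39 to -0.67), had a limma adjusted p of 0.114 and was not called.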

Other observations

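Another pattern, in png and in other genes of the pathway lists, was seen after the values were examined. Plu, gnu, wisp, mtrm and sra did not show it. Png was lowest in brakeless replicate 3 and control replicate 1, the arrays at 8.68 and 9.13, and this pair was also the lowest for fs(1)Ya, which encodes the Young arrest protein needed for the first embryonic mitosis. Fs(1)Ya read 10.5, 10.8 and 9.37 in brakeless arrays, against 9.63, 10.3 and 11.1 in control arrays, and its difference of -0.12 (SE 0.50) was not called (limma adjusted p = 0.998). The catalytic calcineurin gene Pp2B-14D read 9.50, 8.83 and 7.67 in brakeless arrays, against 7.58, 9.10 and 9.27 in control arrays. BicC, an RNA-binding regulator of maternal messages, read 11.6, 11.2 and 10.3 in brakeless arrays, against 10.1, 11.3 and 11.1 in control arrays. This pair was the lowest in 13 of the 47 pathway genes (27.7%), among them Hira, yem and mh, which act on the paternal chromatin or the first divisions, and in 18.5% of the 9384 probe sets above the median. Over all probe sets, the deviations of brakeless replicate 3 and control replicate 1 from their group means had a correlation of 0.55. The pattern crosses the groups, with 1 array of each, and no test was made of it.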
